A study of Mus musculus with 24 samples.

Results

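The 38 genes described here encode proteins of DNA repair and of the damage checkpoint, and were taken as every row of the count tables that carries one of 38 listed symbols. All 38 symbols were found once among the 55401 genes of each table, and all 38 passed the filter on low counts in each of the 3 tables. They fall into 9 genes of end resection and strand exchange, 7 genes of strand invasion, 8 Fanconi anaemia genes, 2 RecQ helicases, 6 genes of excision and mismatch repair, 2 translesion polymerases and 4 checkpoint kinases. Messenger RNA was measured by RNA sequencing in 24 libraries of cultured mouse pancreatic ductal adenocarcinoma cells, in 11 groups. KPsh cells carry a doxycycline-controlled hairpin against Trp53, and were kept for 10 days off doxycycline, with p53 restored, or on 1 µg/ml of it, with p53 silenced (n = 3 each). KPnull cells, which lack p53, were given an inducible construct for p53WT, p53TAD1m (mutant in the first transactivation domain), p53TAD2m (mutant in the second), p53TAD12m (mutant in both) or the empty vector (n = 2 each). By the growth protocol KPnull cells received doxycycline for 48 hours before harvest, whereas the design text speaks of cultures with or without it. No sample label says which, so all 10 libraries were taken as on doxycycline. KPsh cells in which a guide targeted Pcyt2 (sgPcyt2), or edited and supplied with a guide-resistant Pcyt2 cDNA (sgPcyt2+Pcyt2-cDNA), were kept off or on doxycycline for 6 days (n = 2 each). Pcyt2 encodes an enzyme of phosphatidylethanolamine synthesis. In KPsh cells the drug and p53 change together and cannot be told apart, whereas all KPnull groups had the same drug if that protocol holds for each library. The labels name no species for the introduced p53 and do not call the replicates separate cultures, so a p-value measures spread among libraries that may be technical only.

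The p53 protein is a transcription factor that is stabilised after DNA damage and switches on genes for arrest, death and repair. It reaches its targets through a DNA-binding domain and recruits the transcription machinery through 2 neighbouring transactivation domains. Homologous recombination repairs double-strand breaks from the sister chromatid and is active in S and G2 phase, when its genes are mostly expressed. Fanconi anaemia proteins unhook crosslinks between the strands. Nucleotide excision repair removes bulky lesions such as ultraviolet photoproducts, base excision repair removes damaged bases, and mismatch repair corrects replication errors. Translesion polymerases copy past lesions that stop the replicative enzymes, and the kinases ATM, ATR, CHK1 and CHK2 relay damage to the cell cycle. Many S and G2 genes are repressed when p53 is active, by way of p21 (Cdkn1a) and repressor complexes at E2F and CHR promoter elements, while a smaller group of repair genes carries p53 sites.

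Promoter windows of RefSeq on build GRCm38.p6, which run 250 bases before to 50 bases after an annotated start, were at hand for 28 of the 38 genes. None was at hand for Exo1, Rbbp8, Rad50, Nbn, Rad54b, Xrcc2, Fancd2, Recql4, Xpc or Ddb2, so the counts of words leave these genes out. The windows of Bard1 and Brca2 are shown as examples that hold an E2F word. These recombination genes fell in KPsh cells, with p53WT, with p53TAD2m and in both edited lines. The windows of Polk are shown because it rose in each of these comparisons. Capitals mark E2F words in Bard1 (TTTCCCGC, the downstream one) and Brca2 (on the opposite strand, so read as GCGGGAAA), the CHR word TTTGAA in Bard1 (the upstream one), and a p53 half-site in the window of an internal Polk start. The second Polk window, at a start upstream of the counted transcript (which begins outside it, at 96542485), has none of these. The counted Bard1 transcript begins inside its window, at 71103146, upstream of the start used for the window and downstream of both marked words.
Bard1, chr1:71102923-71103222, minus strand: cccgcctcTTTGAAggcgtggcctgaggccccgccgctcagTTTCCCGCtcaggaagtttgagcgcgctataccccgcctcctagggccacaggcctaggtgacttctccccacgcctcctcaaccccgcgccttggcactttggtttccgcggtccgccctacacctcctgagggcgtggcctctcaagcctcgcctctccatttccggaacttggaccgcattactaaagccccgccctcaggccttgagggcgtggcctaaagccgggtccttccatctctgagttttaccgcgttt
Brca2, chr5:150522371-150522670, plus strand: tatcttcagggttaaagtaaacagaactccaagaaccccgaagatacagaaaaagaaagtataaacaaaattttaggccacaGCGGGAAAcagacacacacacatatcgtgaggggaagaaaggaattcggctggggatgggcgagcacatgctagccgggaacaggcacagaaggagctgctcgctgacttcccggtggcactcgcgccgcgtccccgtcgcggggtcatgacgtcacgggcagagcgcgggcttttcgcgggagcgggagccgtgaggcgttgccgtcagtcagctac
Polk, internal start, chr13:96519138-96519437, minus strand: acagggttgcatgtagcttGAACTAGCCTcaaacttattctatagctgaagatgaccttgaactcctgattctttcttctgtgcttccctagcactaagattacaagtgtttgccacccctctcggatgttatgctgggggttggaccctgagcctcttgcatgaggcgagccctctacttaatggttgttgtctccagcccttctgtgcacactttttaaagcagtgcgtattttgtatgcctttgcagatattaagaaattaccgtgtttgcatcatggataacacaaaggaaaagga
Polk, upstream start, chr13:96542530-96542829, minus strand: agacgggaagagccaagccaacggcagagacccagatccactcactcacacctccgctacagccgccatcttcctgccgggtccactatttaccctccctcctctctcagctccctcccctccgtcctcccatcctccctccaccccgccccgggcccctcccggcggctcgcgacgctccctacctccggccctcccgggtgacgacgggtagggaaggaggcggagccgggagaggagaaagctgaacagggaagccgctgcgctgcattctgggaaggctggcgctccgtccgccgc
Searched on both strands, an E2F word (TTTCCCGC, TTTGGCGC, TTTCGCGC or TTTGCCGC) was present in 6 of the 28 genes (Bard1, Brca2, Chek2, Fancg, Msh6 and Rad51c), against 2.6% of the 27025 genes with a window. The CHR word TTTGAA was in 2 of 28 against 20.2% of genes, CCAAT in 16 of 28 against 41.1%, and a p53 half-site in 4 of 28 (Brip1, Fanca, Fancg and Polk) against 9.6%. Of the 18 recombination, Fanconi and RecQ genes with a window, 4 held an E2F word and 2 the CHR word. Brca1, Brip1 and Palb2, which also fell in KPsh cells and with p53WT, held neither. The words may overlap each other, and a match describes letters in a window, not a bound site.

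Library totals were 9393966 to 12983420 counts in the KPsh table, 13657592 to 19431250 in the KPnull table and 13801514 to 17127760 in the Pcyt2 table. Trp53 averaged 258 ± 5.85 CPM (the count scaled to a common library size) in KPsh cells off doxycycline and 21.1 ± 0.721 CPM on it (SD, n = 3 each). In KPnull cells it averaged 668 CPM with p53WT, 638 with p53TAD1m, 527 with p53TAD2m and 566 with p53TAD12m, against 5.33 CPM with vector. In sgPcyt2 cells it averaged 41.9 CPM off and 20.9 CPM on doxycycline, and in sgPcyt2+Pcyt2-cDNA cells 92.0 CPM off and 19.8 CPM on. Pcyt2 stood at 19.5 and 28.5 CPM in sgPcyt2 cells off and on doxycycline, against 2197 and 2612 CPM in the cDNA cells. In KPsh cells without a guide, counted in another table, it averaged 86.3 CPM off and 109 CPM on. The cDNA cells thus held Pcyt2 RNA far above the level of cells without a guide, and no edited group stood near that level. Of 8 ductal and epithelial markers, Krt8, Krt18, Krt19 and Cdh1 were at 401 CPM or more in every library, Krt7, Muc1 and Sox9 had lowest values of 0.19, 0.441 and 0.824 CPM, and Epcam did not pass 1.38 CPM. Their summed level was 12332 to 13016 CPM off and 6813 to 7108 CPM on doxycycline in KPsh cells, and 8593 to 9070 CPM with p53WT and 6104 to 6539 CPM with vector. It was 10239 to 10944 CPM off and 6348 to 6426 CPM on in sgPcyt2 cells, and 11393 to 11432 CPM off and 7498 to 7505 CPM on in cDNA cells. The summed levels of 8 immune, 8 fibroblast, 6 endothelial and 10 acinar and endocrine markers did not pass 31.3, 9.45, 8.27 and 4.69 CPM. Csf1r (up to 21.2 CPM), Cd68 (9.63), Pdgfra (8.84) and Cdh5 (8.12) were the highest of the immune, fibroblast and endothelial markers, while Ptprc and Pecam1 did not pass 0.533 and 0.164 CPM and Dcn and Lum were at 0. The endothelial sum, mostly Cdh5, was 2.79 to 3.23 CPM off and 0.227 to 0.731 CPM on doxycycline in KPsh cells, 6.67 to 8.27 CPM off and 2.24 to 2.78 CPM on in sgPcyt2 cells, and 6.67 to 7.22 CPM off and 0.662 to 0.826 CPM on in cDNA cells. The part of these marker levels in the repair results was not tested. Mitochondrial genes took 3.01 to 3.04% of counts with p53WT against 2.24 to 2.36% with vector, and 3.31 to 3.51% off against 1.86 to 1.98% on doxycycline in sgPcyt2 cells.

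With p53 restored in KPsh cells, recombination, Fanconi, RecQ and checkpoint genes were lower as a body, while Polk and Ercc1 were higher. A gene is called here at an adjusted p under 0.05 in edgeR's quasi-likelihood test across all genes of its table. Of the 38 genes, 26 fell and 4 rose off doxycycline, against 31.7% and 33.1% of the 13990 genes tested. Their median log2 change was -0.50, against 0.01 over all genes. The 26 genes of recombination, the Fanconi pathway and the RecQ family had 18 lower and 2 higher, the 8 genes of excision, mismatch and translesion repair had 4 lower and 2 higher, and all 4 checkpoint kinases fell. In bulk RNA, fewer cells in a given cycle phase and less RNA per cell cannot be told apart. Of 20 proliferation genes, 16 fell and 1 rose in the same comparison, with a summed level of 3184 to 3276 CPM off and 4939 to 5036 CPM on doxycycline, and their part in the repair results was not tested.

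**Figure D1:**
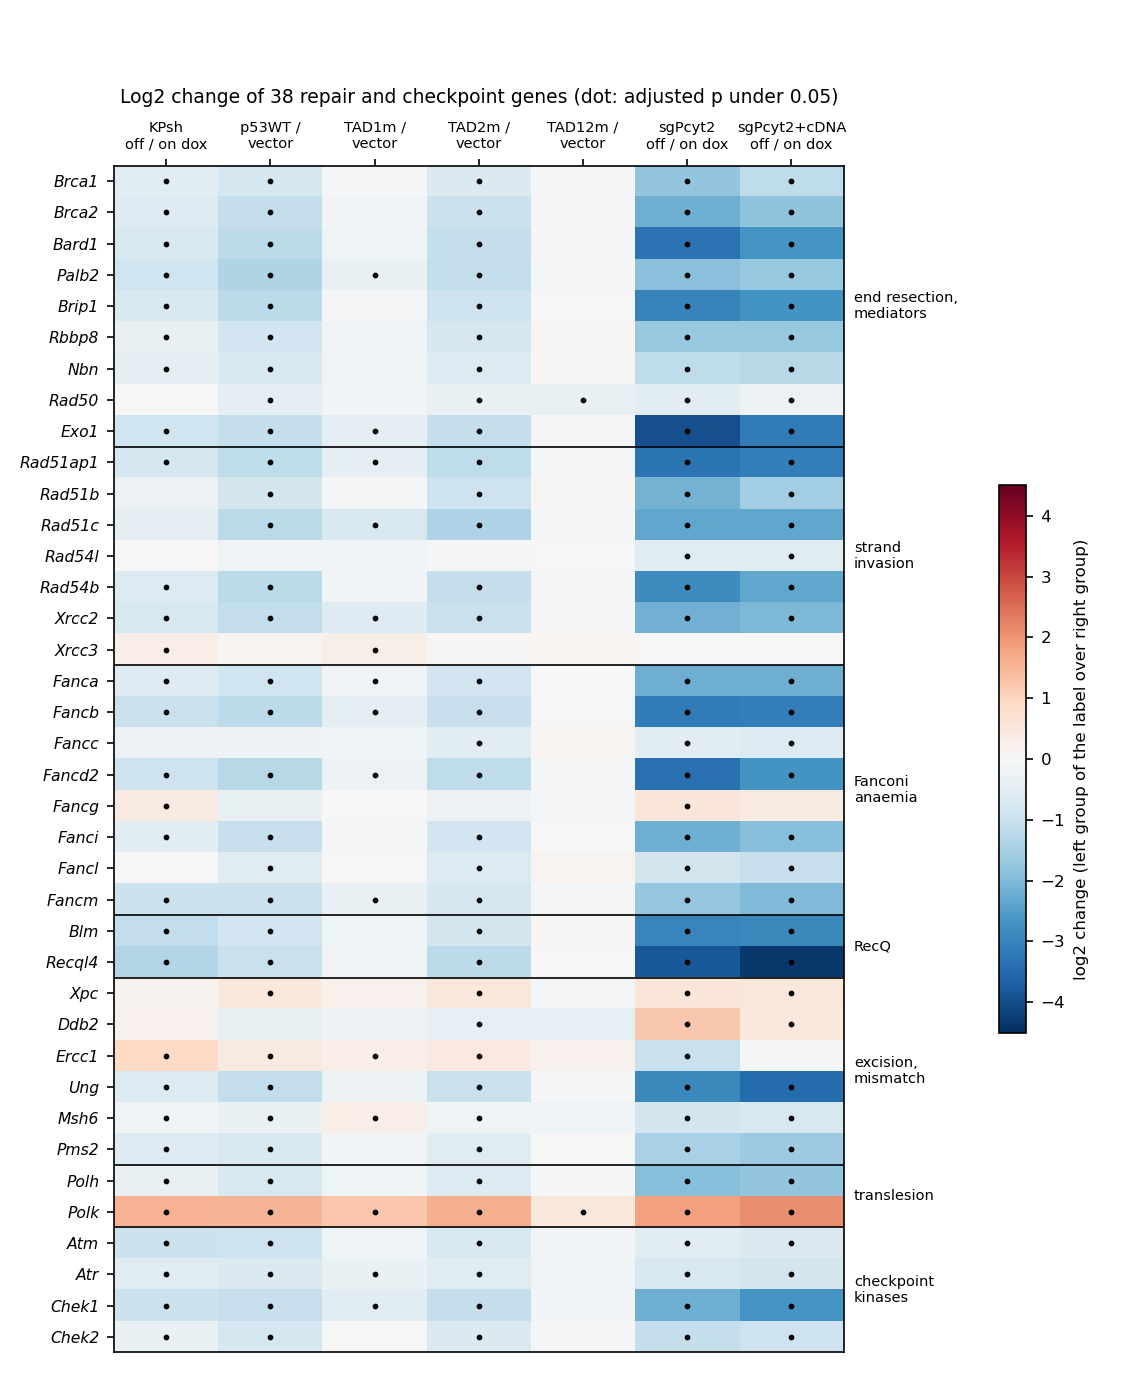
Log2 change of each of the 38 genes (rows, by role) in each comparison (columns), with the colour scale in log2 units and a dot where the adjusted p was under 0.05. Most rows are negative for KPsh cells, p53WT, p53TAD2m and both edited lines and near 0 for p53TAD12m, whereas Polk is positive in every column that sets a p53 form or doxycycline withdrawal against its control.

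Of the 9 genes of end resection and strand exchange, 8 fell in KPsh cells. Exo1, a nuclease that lengthens the resected end, had 30.4, 33.8 and 28.6 CPM off doxycycline, against 59.8, 58.7 and 56.0 CPM on it. The groups did not overlap, and the log2 change was -0.91 ± 0.08 (SE, adjusted p = 1.33e-09). Palb2, which bridges BRCA1 and BRCA2, had 11.3, 9.13 and 9.98 CPM off against 18.3, 18.9 and 19.7 CPM on, a log2 change of -0.91 ± 0.12 without overlap. The other changes were -0.69 for the helicase gene Brip1, -0.67 for Bard1, the obligate partner of BRCA1, -0.57 for Brca2, a mediator of strand exchange, and -0.46 for Brca1. Rbbp8 (CtIP), which starts resection, changed by -0.32 and Nbn, of the MRN break sensor, by -0.44. Rad50, the other MRN gene listed, was the exception, with 67.1, 76.2 and 71.6 CPM off and 77.9, 74.7 and 65.8 CPM on. These groups overlapped, at a log2 change of -0.02 ± 0.07 (adjusted p = 0.817).

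Among the genes of strand invasion, 3 of 7 fell. They were Rad51ap1 (-0.80), which stimulates the step, Xrcc2 (-0.72), which acts in recombination, and Rad54b (-0.63), a DNA translocase. Rad51ap1 had 20.9, 20.6 and 21.4 CPM off doxycycline, against 39.2, 37.3 and 33.5 CPM on it, with no overlap. Xrcc3, related to Xrcc2, was called higher with 27.4, 24.1 and 24.5 CPM off against 19.3, 24.2 and 18.2 CPM on, which overlap. That call, at a log2 change of 0.31 ± 0.11 (adjusted p = 0.014), was lost without off-doxycycline replicate 1 (adjusted p = 0.0665), on-doxycycline replicate 1 (0.0816) or on-doxycycline replicate 3 (0.122). Rad51c had 3.42, 4.06 and 4.14 CPM off and 5.36, 4.38 and 5.74 CPM on and was not called (-0.42 ± 0.19, adjusted p = 0.0514), but passed at 0.0286 without on-doxycycline replicate 2. Rad51b and Rad54l were at -0.27 and 0.03 with no call. Rad54l was counted over a processed transcript, 25.9% of which overlaps Lrrc41 on the other strand, so its values bear on the coding gene only in part.

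In the Fanconi group 5 of 8 genes fell, as did both RecQ helicases. Fancd2, the protein that the core complex marks with ubiquitin, had 23.6, 28.2 and 26.9 CPM off doxycycline, against 48.0, 50.9 and 52.6 CPM on it. Fancb, of the core complex, had 18.1, 19.8 and 19.1 CPM off against 38.6, 38.7 and 37.5 CPM on. Neither gene's groups overlapped, and the log2 changes were -0.94 ± 0.08 and -1.01 ± 0.09. The core subunit Fanca changed by -0.58, the Fancd2 partner Fanci by -0.48 and the translocase gene Fancm by -0.95. Polg, which overlaps counted Fanci exons on the other strand, changed by -0.55 ± 0.07, and its part in the Fanci value was not tested. Recql4, a helicase of replication initiation, had the deepest change of the 38 genes, with 13.8, 15 and 16.5 CPM off against 37.3, 34.7 and 41.5 CPM on, a fold of 0.399 (adjusted p = 9.88e-11). Blm, which dissolves double Holliday junctions, had 23.0, 25.1 and 21.3 CPM off against 48.2, 50.7 and 51.9 CPM on, and its change was -1.12 ± 0.08. Fancl, the ubiquitin ligase, was at -0.02 with no call. Fancc, with 11.5, 9.22 and 12 CPM off and 12.7, 12.9 and 13.7 CPM on, was not called (-0.27, adjusted p = 0.0692) except without off-doxycycline replicate 3 (0.043). Fancg was called higher (0.42 ± 0.18, adjusted p = 0.0414), a call lost without off-doxycycline replicate 1 (0.157), on-doxycycline replicate 2 (0.0711) or on-doxycycline replicate 3 (0.239), with no filter on low counts (0.0577) and in DESeq2 (0.117).

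All 4 checkpoint kinase genes were lower off doxycycline. Atm, the kinase of double-strand breaks, had 28.3, 39.1 and 33 CPM off against 61.9, 62.7 and 70.8 CPM on, and Chek1, the effector kinase below ATR, had 20.3, 20.4 and 18.2 CPM off against 37.3, 34.2 and 41.4 CPM on. Both pairs of groups were fully apart, with log2 changes of -0.96 ± 0.10 and -0.95 ± 0.09. Atr, the kinase of stalled forks, and Chek2, the effector below ATM, changed less, by -0.53 ± 0.08 and -0.31 ± 0.08.

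The excision, mismatch and translesion genes split. Polk, the translesion polymerase kappa, which copies past bulky adducts, had 67.2, 64.5 and 60.7 CPM off doxycycline, against 23.7, 21.0 and 20.8 CPM on it. This was the highest change of the 38 genes, at 2.93-fold (log2 1.55 ± 0.08, adjusted p = 3.2e-13). Ercc1, part of the nuclease that cuts 5′ of a bulky lesion, had 65.5, 65.0 and 71.9 CPM off against 34.1, 38 and 38.4 CPM on, a 1.83-fold difference (adjusted p = 1.14e-09). Both were fully separated. Cd3eap overlaps 7.7% of the counted Ercc1 exons on the other strand and moved the other way (-0.44). Xpc, the lesion sensor of nucleotide excision repair, and Ddb2, which recognises photoproducts, were not called, at log2 changes of 0.16 ± 0.10 and 0.19 ± 0.12. Ung, the uracil glycosylase of base excision repair, had 15.9, 9.96 and 14 CPM off against 20.7, 21.5 and 19.2 CPM on and fell by 0.62 on the log2 scale. The mismatch genes Pms2 and Msh6 changed by -0.59 and -0.20 and Polh, the translesion polymerase for photoproducts, by -0.33. Pms2 was counted over a transcript with a retained intron.

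**Figure D2:**
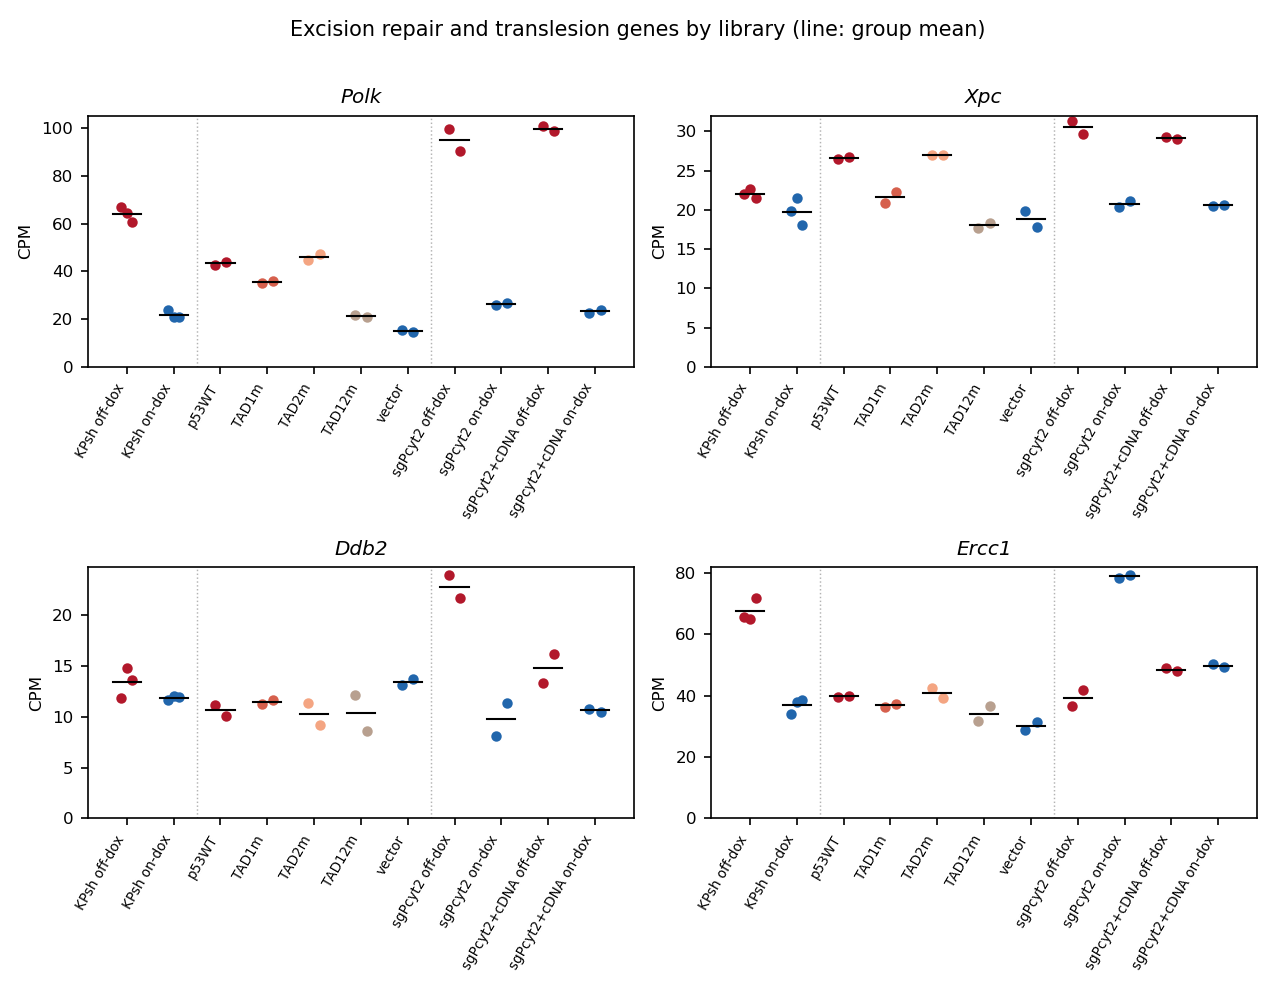
CPM of Polk, Xpc, Ddb2 and Ercc1 in every library (points) with the group mean (line), by group along the x axis in the 3 tables. Polk is higher in every library with p53WT, p53TAD1m, p53TAD2m or doxycycline withdrawal than in its controls, whereas within the Pcyt2 table Ercc1 is highest in the sgPcyt2 cells on doxycycline.

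In KPnull cells, taken as all on doxycycline, recombination, Fanconi and checkpoint genes were also lower with p53WT than with vector, while Polk, Xpc and Ercc1 were higher. Of the 38 genes, 30 fell and 3 rose against vector, while 25.1% and 25.5% of the 15075 genes tested did so. The median was -0.85, against -0.01 over all genes. The 26 recombination, Fanconi and RecQ genes had 22 lower and 0 higher, all 4 checkpoint kinases fell, and the 8 excision, mismatch and translesion genes had 4 lower and 3 higher. No call of the 33 was lost in any alternative setting or with any 1 library left out. Of the 20 proliferation genes, 19 fell, with a summed level of 2540 to 2593 CPM with p53WT and 5080 to 5196 CPM with vector, whose part in the repair result was not tested.

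Each of the 9 resection and strand exchange genes fell with p53WT. Palb2 had 4.76 and 6.15 CPM with p53WT, against 13.7 and 14.5 CPM with vector, the lowest log2 change of the 38 genes in this comparison (-1.37 ± 0.13, adjusted p = 2.23e-07). Bard1 had 14.2 and 13.1 CPM with p53WT against 31.2 and 30.5 CPM with vector, and Brip1 14.4 and 15.2 CPM against 32.9 and 33.9 CPM. In both, the p53WT libraries were less abundant than either vector library. Brca2 (-1.08), Exo1 (-1.07), Rbbp8 (-0.85), Brca1 (-0.78) and Nbn (-0.69) followed. Rad50 fell least, with 64.2 and 64.2 CPM with p53WT and 88.3 and 84.2 CPM with vector (-0.43 ± 0.06). Of the strand invasion group, Rad54b had 6.57 and 6.77 CPM with p53WT and 16.4 and 14.9 CPM with vector, and Rad51c had 2.82 and 3.21 CPM with p53WT and 7.30 and 6.84 CPM with vector. Both were lower in each p53WT library, at -1.23 ± 0.14 and -1.23 ± 0.19. Rad51ap1 (-1.15), Xrcc2 (-1.10) and Rad51b (-0.83) also fell, while Xrcc3 stood at 22.7 and 21.0 CPM with p53WT and 20.3 and 20.7 CPM with vector (0.09 ± 0.09, adjusted p = 0.451) and Rad54l at -0.18 ± 0.08 (adjusted p = 0.0662).

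With p53WT, 6 of 8 Fanconi genes and both RecQ genes fell. Fancd2 had 22.4 and 23.5 CPM with p53WT against 57.5 and 50.4 CPM with vector, and Fanci 24.3 and 26.4 CPM against 55.6 and 48.4 CPM. The groups were apart in both, with changes of -1.24 ± 0.09 and -1.04 ± 0.09. Polg, which shares 16.4% of the counted Fanci exons on the other strand, changed by -0.38. Fancb changed by -1.17, Fancm by -0.97, Fanca by -0.91 and Fancl by -0.53, and Vrk2, which overlaps 17% of the counted Fancl exons on the other strand, changed by -0.37. Zfp276 on the strand opposite Fanca was at 0.03 with no call. Fancg (-0.33 ± 0.14, adjusted p = 0.0523) and Fancc, with 11.5 and 13.1 CPM with p53WT and 15 and 13.9 CPM with vector, missed the threshold. Recql4 had 19.5 and 20 CPM with p53WT, against 38.6 and 40.8 CPM with vector, and Blm 21.1 and 24.1 CPM against 43.8 and 37.5 CPM, both without overlap. Of the kinases, Chek1 changed by -1.05, Atm by -0.94, Chek2 by -0.80 and Atr by -0.65.

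Polk, Xpc and Ercc1 rose with p53WT. Polk had 42.8 and 43.9 CPM with p53WT against 15.5 and 14.7 CPM with vector, or 2.87-fold (adjusted p = 2.27e-10). Xpc, whose library values are given here by a choice made after they were seen, had 26.5 and 26.7 CPM with p53WT against 19.9 and 17.8 CPM with vector, or 1.41-fold (adjusted p = 0.000216). Ercc1 had 39.6 and 39.8 CPM with p53WT against 28.9 and 31.4 CPM with vector, or 1.32-fold (adjusted p = 0.00091). No vector library reached a p53WT library in these 3 genes. They were picked for a large called change or after their values were seen, so this separation only describes them. Ddb2, which p53 induces in human cells, had 11.2 and 10.1 CPM with p53WT and 13.1 and 13.7 CPM with vector and was not called (-0.33 ± 0.15, adjusted p = 0.0726), and Acp2, which overlaps 27.9% of its counted exons on the other strand, rose (0.46 ± 0.08). Ung fell to 12.5 and 10.2 CPM with p53WT, against 22.9 and 26.2 CPM with vector. Polh (-0.73), Pms2 (-0.68) and Msh6 (-0.29) fell as well.

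**Figure D3:**
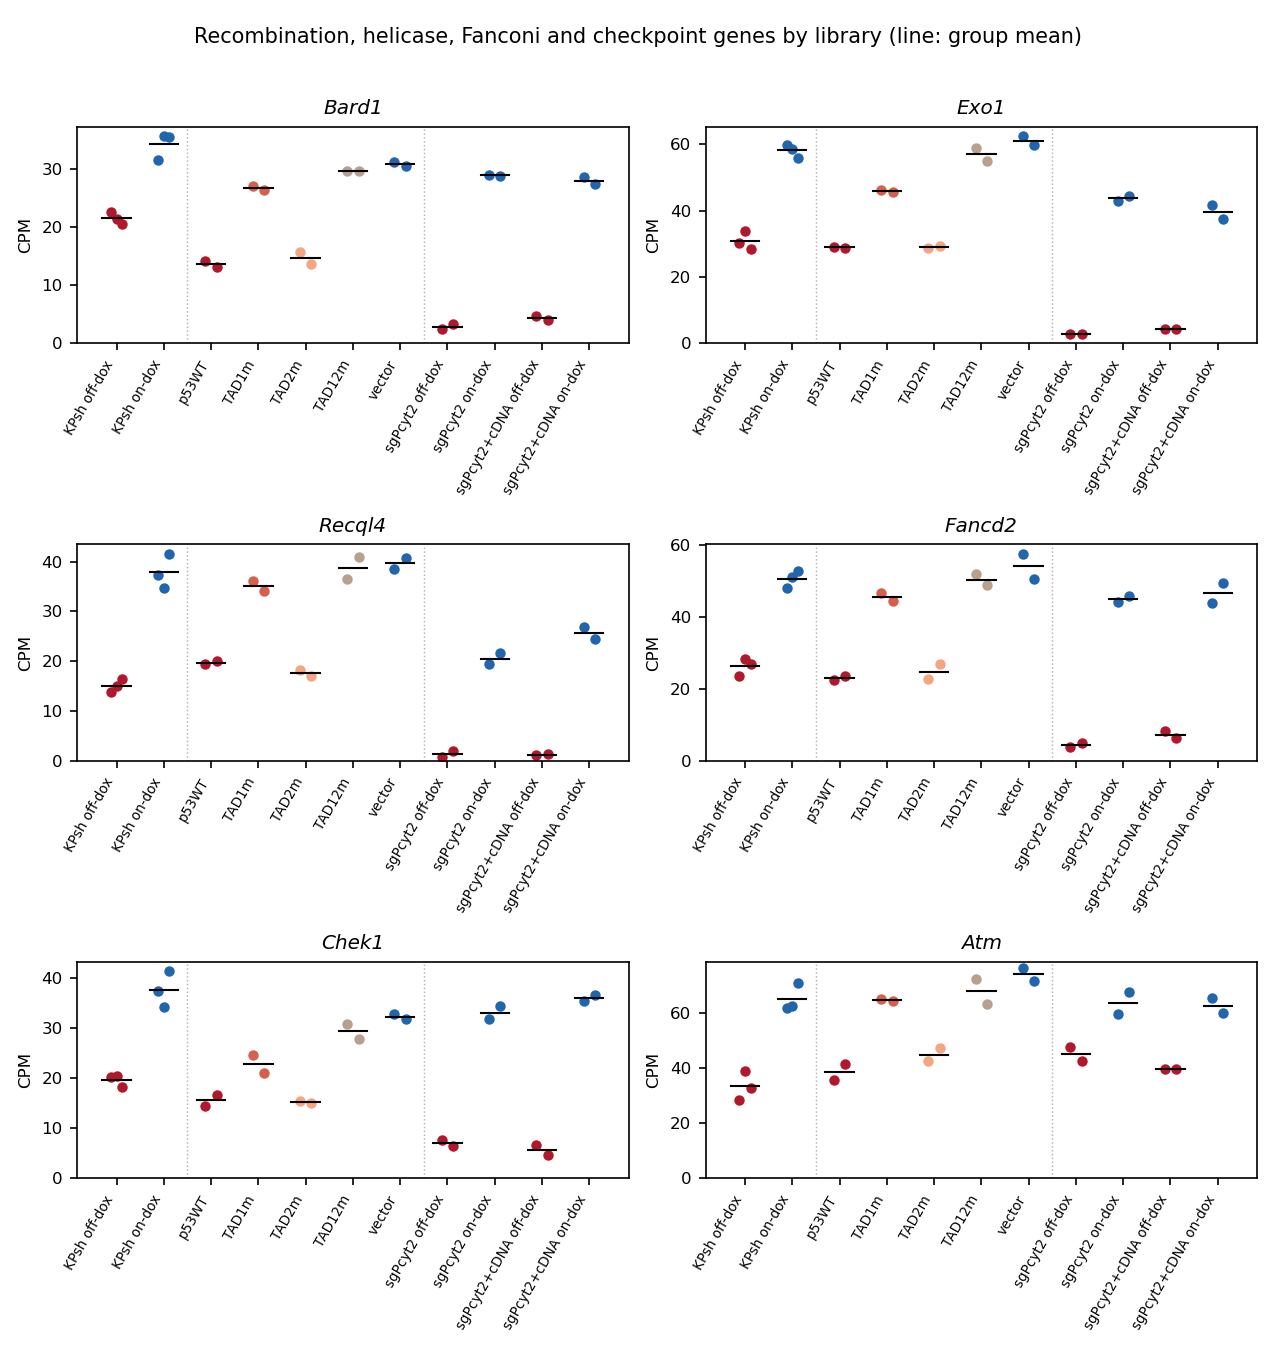
CPM of Bard1, Exo1, Recql4, Fancd2, Chek1 and Atm in every library (points) with the group mean (line), by group in the 3 tables. In KPnull cells the p53WT and p53TAD2m libraries lie below the p53TAD1m, p53TAD12m and vector libraries in all 6 panels, and off doxycycline 5 of the 6 genes in the edited cells do not pass 8.24 CPM while Atm is at 39.6 CPM or more.

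The mutants of the transactivation domains were compared with the same vector libraries, so their changes against vector share that control and are given side by side. With p53TAD2m, 32 genes fell and 3 rose, against 24.2% and 24.9% of genes tested, at a median of -0.75. With p53TAD1m, 11 fell and 4 rose, against 17.5% and 19%, at a median of -0.17, and 9 were called without p53TAD1m replicate 2 or vector replicate 1. With p53TAD12m, 1 fell and 1 rose, against 1.85% and 2.00%, at a median of -0.06, and 4 were called without p53TAD12m replicate 1. The 26 recombination, Fanconi and RecQ genes had 23 lower with p53TAD2m, 9 lower and 1 higher with p53TAD1m and 1 lower with p53TAD12m. Of the 20 proliferation genes, 20 fell with p53TAD2m, 9 fell and 2 rose with p53TAD1m, and with p53TAD12m 0 were called in edgeR or DESeq2 and 1 had an unadjusted p under 0.05. Their summed level was 2620 to 2659 CPM with p53TAD2m, 4573 to 4680 CPM with p53TAD1m and 4993 to 5140 CPM with p53TAD12m. Cdkn1a, which encodes p21, averaged 380 CPM with p53WT, 53.5 with p53TAD1m, 295 with p53TAD2m and 32.6 with p53TAD12m, against 43.1 CPM with vector. Whether these levels have a part in the repair results was not tested.

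Polk was called higher with all 4 p53 forms. It had 35.3 and 35.8 CPM with p53TAD1m, 44.8 and 47.2 CPM with p53TAD2m and 21.7 and 21.1 CPM with p53TAD12m. All 6 of these libraries lay above both vector libraries, with log2 changes of 1.24 ± 0.08, 1.61 ± 0.08 and 0.50 ± 0.09 against vector. Xpc had 27 and 27 CPM with p53TAD2m, 20.9 and 22.3 CPM with p53TAD1m and 17.7 and 18.3 CPM with p53TAD12m, and of these the p53TAD2m change was called (0.51 ± 0.09). Ercc1 rose by 0.44 with p53TAD2m and by 0.29 with p53TAD1m. The p53TAD1m call of Ercc1 was lost without p53TAD1m replicate 1 or 2 or vector replicate 1 (adjusted p of 0.0658 to 0.144) and in DESeq2 (0.0516). Msh6, which recognises mismatches, rose with p53TAD1m, at 231 and 215 CPM against 185 and 173 CPM with vector, and fell with p53WT, at 144 and 150 CPM. Its fall with p53TAD2m (-0.21) was lost without p53TAD2m replicate 1 (adjusted p = 0.109) or vector replicate 1 (0.0934). Ddb2 was called lower with p53TAD2m (-0.38, adjusted p = 0.0458), a call lost without p53TAD2m replicate 2 or either vector library (0.0822 to 0.325), with RLE scaling (0.0544), without robust fits (0.0547) and in DESeq2 (0.157).

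Of the 11 genes lower with p53TAD1m than with vector, Rad51c (-0.73), Xrcc2 (-0.58), Chek1 (-0.49), Exo1 (-0.41), Rad51ap1 (-0.39), Fancb (-0.39) and Atr (-0.30) kept the call in every alternative. The calls of Palb2 (-0.33) and Fanca (-0.17) were lost whichever of the 4 libraries was left out. Those of Fancd2 (-0.25) and Fancm (-0.34) were lost without p53TAD1m replicate 2 or vector replicate 1, and that of Fancd2 also without p53TAD1m replicate 1. Xrcc3 rose by 0.28 with p53TAD1m, a call lost whichever library was left out. In DESeq2 the calls of Palb2, Fanca, Fancd2 and Xrcc3 were lost as well. With no filter on low counts those of Palb2 and Fanca were lost, and that of Fanca also without robust fits and with a replicate block. With p53TAD12m, Rad50 had 67.6 and 67.6 CPM, against 88.3 and 84.2 CPM with vector, and was the 1 member lower (-0.35 ± 0.06, adjusted p = 0.00258). Without p53TAD12m replicate 1, Ddb2 and Msh6 were called lower as well (adjusted p of 0.017 and 0.0251).

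Set directly against p53WT, p53TAD1m had 30 genes higher and 2 lower, against 20.4% and 18.7% of genes tested, at a median of 0.64 over the members and 0.02 over all genes. All 9 resection genes, 4 of 7 in the strand invasion group, 7 of 8 Fanconi genes, both RecQ genes and all 4 kinases were higher. Brip1 had 32.1 and 31.8 CPM with p53TAD1m, against 14.4 and 15.2 CPM with p53WT, and Rad54b had 15.6 and 13.5 CPM against 6.57 and 6.77 CPM. They had the top changes, of 1.11 ± 0.09 and 1.13 ± 0.14, and every p53TAD1m library lay above both p53WT libraries. Chek2 had 39.0 and 36 CPM with p53TAD1m against 20.3 and 22.7 CPM with p53WT, and Ung 20.6 and 21.2 CPM against 12.5 and 10.2 CPM. Polk was lower with p53TAD1m than with p53WT (-0.28 ± 0.07, adjusted p = 0.00574), as was Xpc (-0.30 ± 0.09), whose call was lost without p53TAD1m replicate 1 (0.101) or either p53WT library (0.0536 and 0.0538) and in DESeq2 (0.0609). The call of Fancg (0.36) was lost whichever library was left out. It was also lost in DESeq2, with RLE factors, with no filter on low counts and with a replicate block. That of Rad51b (0.73) was lost without p53TAD1m replicate 1 and in DESeq2. Of the 20 proliferation genes 19 were higher, and Cdkn1a was lower (-2.83 ± 0.08), with Trp53 at -0.07 (adjusted p = 0.448). With p53TAD2m against p53WT, 0 genes were called either way in edgeR or DESeq2 and 3 had an unadjusted p under 0.05, where 0.199% of genes were higher and 0.0862% lower and Trp53 was lower (-0.34 ± 0.06).

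**Figure D4:**
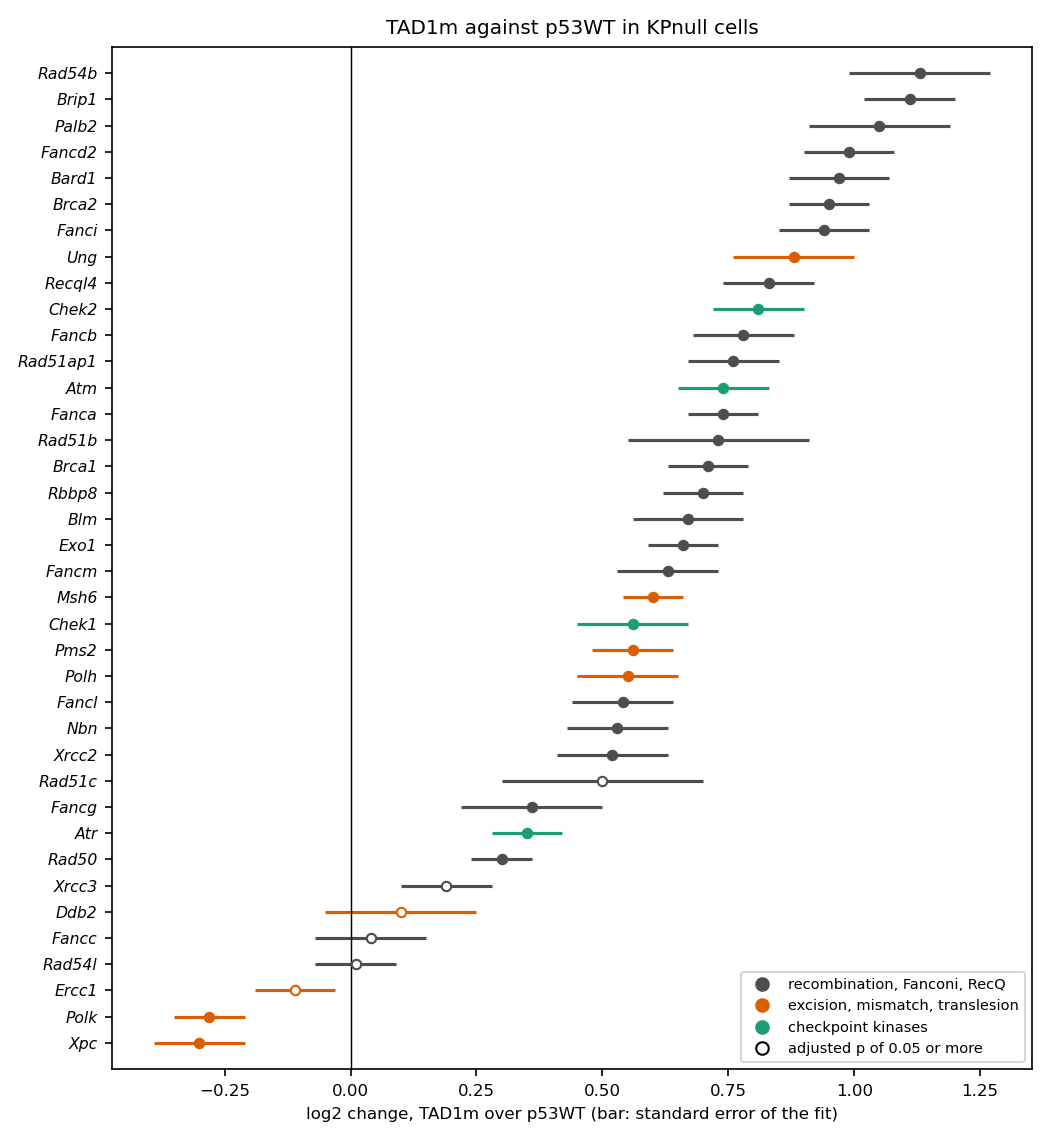
Log2 change of each of the 38 genes between p53TAD1m and p53WT cells, with the standard error as a bar, colours by role and open points at an adjusted p of 0.05 or more. Recombination, Fanconi, RecQ and checkpoint genes lie mostly between 0.30 and 1.13, while Polk and Xpc lie below 0.

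In sgPcyt2 cells, 6 days off doxycycline were accompanied by deep falls of recombination genes, with or without the Pcyt2 cDNA. Trp53 rose 2-fold without the cDNA and 4.64-fold with it, against 12.3-fold in KPsh cells without a guide. Cdkn1a averaged 296 CPM off and 73.6 CPM on doxycycline in sgPcyt2 cells, and 388 and 50 CPM in cDNA cells. The part of these levels in the falls was not tested. Without the cDNA 33 genes fell and 4 rose off doxycycline, against 37.1% and 39.2% of 14916 genes, at a median of -1.83. With the cDNA 32 fell and 3 rose, against 36.3% and 37.3%, at a median of -1.71. The 26 recombination, Fanconi and RecQ genes had 24 lower in each, with medians of -2.18 and -1.95, and all 4 kinases fell in each. Of the 20 proliferation genes 19 fell in each, at summed levels of 663 to 729 CPM off and 4387 to 4492 CPM on doxycycline in sgPcyt2 cells, and of 792 to 869 CPM off and 4550 to 4637 CPM on in cDNA cells. Their part in the repair results was not tested. The KPsh cells without a guide were counted in another table and after 10 days, so no test was made between them and these cells.

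Exo1 and Recql4 were reduced most in the sgPcyt2 cells. Exo1 had 2.73 and 2.97 CPM off doxycycline, against 43.0 and 44.5 CPM on it, a fold of 0.0652. In cDNA cells it had 4.51 and 4.29 CPM off against 41.8 and 37.5 CPM on, a fold of 0.112. Recql4 had 0.867 and 2.05 CPM off against 19.4 and 21.6 CPM on in sgPcyt2 cells, and 1.11 and 1.37 CPM off against 26.8 and 24.5 CPM on in cDNA cells. Off-doxycycline libraries thus lay far below on-doxycycline ones in both, with log2 changes of -3.82 ± 0.25 and -4.35 ± 0.26 for Recql4. Other falls in sgPcyt2 and in cDNA cells were -3.34 and -2.69 for Fancd2, -3.32 and -2.67 for Bard1, -3.30 and -3.07 for Rad51ap1, -3.15 and -3.10 for Fancb, -2.97 and -2.89 for Blm, and -2.21 and -2.67 for Chek1. Atm, in contrast, had 47.7 and 42.7 CPM off against 59.7 and 67.6 CPM on in sgPcyt2 cells (-0.49 ± 0.07), and Rad50 changed by -0.50 and -0.28. Xrcc3 stood at 21.1 to 23.4 CPM in all 8 libraries and was called in neither line. The Fancc fall in sgPcyt2 cells (-0.48) was lost without on-doxycycline replicate 1 (adjusted p = 0.102), and the Fancg rise (0.56) without off-doxycycline replicate 1 (0.154) and in DESeq2 (0.0762).

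Polk, Xpc and Ddb2 rose in both edited lines. Acp2, whose reads cannot be told apart from those of Ddb2 where the 2 genes overlap, rose as well. It averaged 66 CPM off and 29.5 CPM on doxycycline in sgPcyt2 cells, and 53.8 and 30.5 CPM in cDNA cells. Its part in the Ddb2 rise was not tested. Polk had 99.7 and 90.7 CPM off and 26.1 and 26.8 CPM on doxycycline in sgPcyt2 cells, and 101 and 98.8 CPM off and 22.6 and 24.0 CPM on in cDNA cells, or 3.6-fold and 4.28-fold. Xpc had 31.3 and 29.7 CPM off and 20.3 and 21.1 CPM on in sgPcyt2 cells, and 29.3 and 29 CPM off and 20.5 and 20.6 CPM on in cDNA cells. Both genes were higher in every off-doxycycline library. Ung moved the other way, with 2.47 and 2.97 CPM off and 21.2 and 19.4 CPM on in sgPcyt2 cells and 2.16 and 1.74 CPM off and 20.7 and 22.0 CPM on in cDNA cells. Polh (-1.90 and -1.78), Pms2 (-1.45 and -1.64) and Msh6 (-0.83 and -0.71) fell as well.

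**Figure D5:**
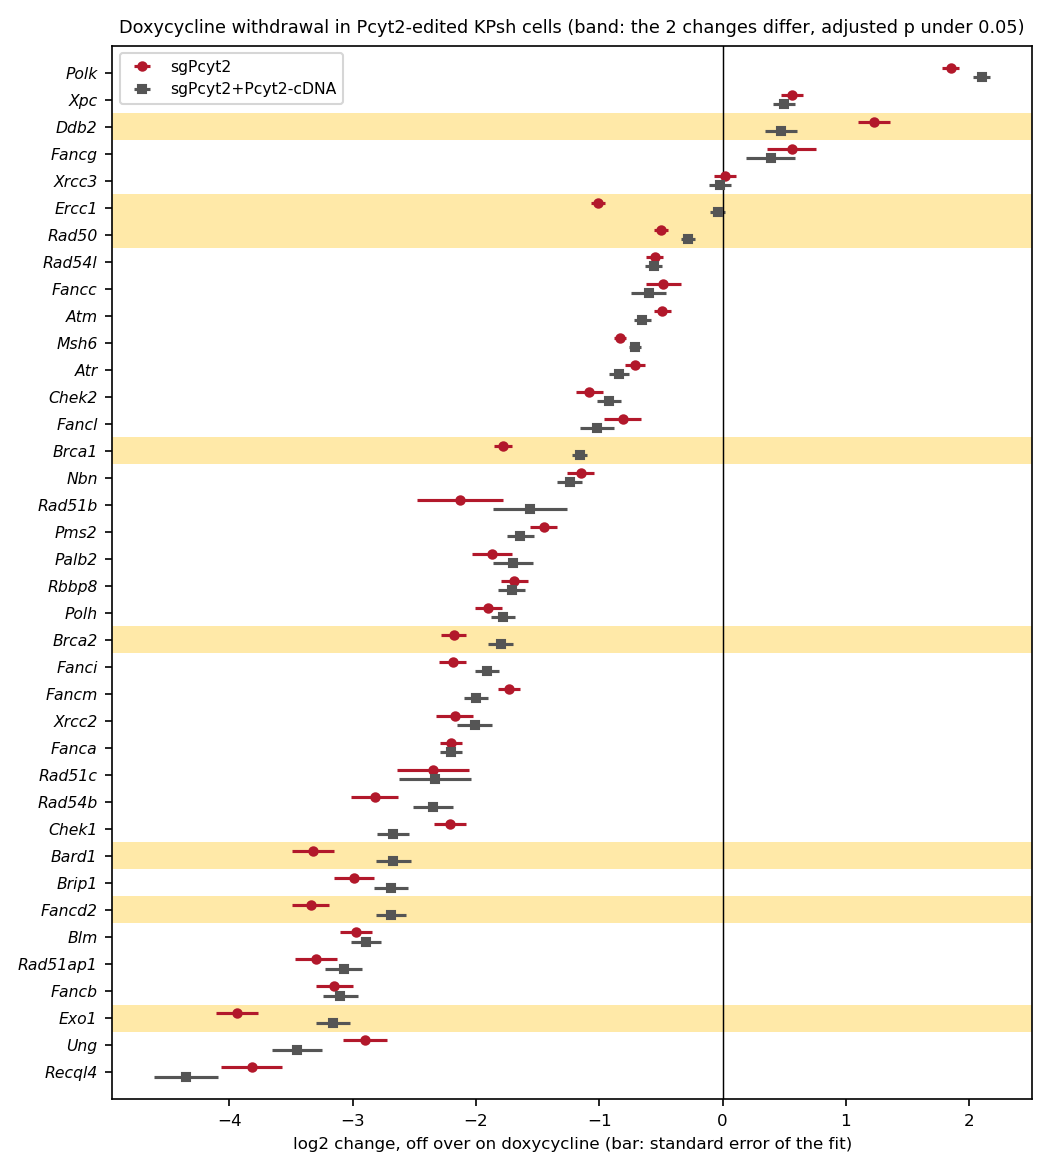
Log2 change off against on doxycycline of each of the 38 genes in sgPcyt2 cells (circles) and in sgPcyt2+Pcyt2-cDNA cells (squares), with standard errors as bars. The values of the lines lie close together for most genes, while Ercc1 is at -1.01 in sgPcyt2 cells and -0.04 in cDNA cells and Ddb2 at 1.23 and 0.47.

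The withdrawal effect differed between sgPcyt2 and cDNA cells, by the interaction term, for 8 of the 38 genes, 7 lower and 1 higher, against 12.4% and 12.8% of genes tested. With both directions counted, a smaller share of the 38 genes than of all genes was called, although the share called lower was larger. Loss of Pcyt2 in sgPcyt2 cells and its excess in cDNA cells cannot be told apart in this term. DESeq2 called 5, as did edgeR without off-doxycycline cDNA replicate 1. Trp53 itself rose less in sgPcyt2 cells (log2 1.0) than in cDNA cells (2.21), a difference of -1.21 ± 0.12, and 9 of the 20 proliferation genes fell further, and the part of either in the repair results was not tested. Ercc1 had 36.7 and 41.8 CPM off and 78.3 and 79.2 CPM on doxycycline in sgPcyt2 cells, and 48.9 and 48.0 CPM off and 50.2 and 49.3 CPM on in cDNA cells. The high libraries were the on-doxycycline sgPcyt2 ones, and the difference of effects was -0.97 ± 0.09 (adjusted p = 6.46e-12). Cd3eap, its overlapping neighbour, had similar changes in each line (-0.90 and -0.96). Ddb2 had 23.9 and 21.7 CPM off and 8.15 and 11.4 CPM on in sgPcyt2 cells, and 13.3 and 16.2 CPM off and 10.8 and 10.5 CPM on in cDNA cells, with a difference of 0.76 ± 0.18 (adjusted p = 0.00131). Its overlapping neighbour Acp2 rose in both lines (1.16 and 0.82, a difference of 0.34 ± 0.10). The Ddb2 rise in cDNA cells (0.47) was lost without off-doxycycline replicate 2 (adjusted p = 0.0588).

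The other 6 genes, of recombination and the Fanconi pathway, fell further in sgPcyt2 cells. Brca1 had 24.6 and 24.3 CPM off and 80.7 and 87.7 CPM on in sgPcyt2 cells, and 35.8 and 35 CPM off and 81.3 and 77.1 CPM on in cDNA cells, and its difference was -0.62 ± 0.10 (adjusted p = 1.22e-06). Bard1 had 2.47 and 3.32 CPM off in sgPcyt2 cells and 4.71 and 4.05 CPM off in cDNA cells, against 27.3 to 28.9 CPM on doxycycline in either line. Fancd2 had 3.80 and 5.09 CPM off in sgPcyt2 cells and 8.24 and 6.35 CPM off in cDNA cells. The off-doxycycline sgPcyt2 libraries were thus the lowest for each of the 3 genes. The differences were -0.77 ± 0.22 for Exo1, -0.66 ± 0.19 for Fancd2, -0.65 ± 0.22 for Bard1, -0.38 ± 0.14 for Brca2 and -0.23 ± 0.08 for Rad50. The calls of Bard1 and Fancd2 were lost without replicate 1 of the off-doxycycline sgPcyt2 (adjusted p = 0.222 and 0.124) or cDNA cells (0.131 and 0.11), and that of Bard1 also without on-doxycycline cDNA replicate 2 (0.0612) and in DESeq2 (0.0824). That of Brca2 was lost in 7 of the 8 fits without 1 library (0.0514 to 0.126) and in DESeq2 (0.159), and that of Rad50 in 4 of them (0.0677 to 0.203) and in DESeq2 (0.157). Chek1 (0.46 ± 0.18, adjusted p = 0.0586) was called without on-doxycycline sgPcyt2 replicate 2 (0.0438) or off-doxycycline cDNA replicate 1 (0.0146), and Polk (-0.25, adjusted p = 0.057) without off-doxycycline sgPcyt2 replicate 1 (0.0122) or off-doxycycline cDNA replicate 2 (0.0411).

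At a fixed drug state, sgPcyt2 and cDNA cells were compared directly, which again sets low Pcyt2 against an excess of it. On doxycycline 1 was higher and 2 lower, against 8.40% and 10.0% of genes tested, and these were Ercc1 (0.66 ± 0.06), Fanca (-0.22) and Recql4 (-0.32). Without either on-doxycycline cDNA library 1 gene was called, as in DESeq2. The Fanca call was lost in 3 of 4 fits without 1 library (adjusted p of 0.0534 to 0.0631) and that of Recql4 in 3 of 4 (0.0562 to 0.231). Off doxycycline 3 were higher and 8 lower, against 16.3% and 16.8%, and 4 were called without off-doxycycline sgPcyt2 replicate 1 and 6 without off-doxycycline cDNA replicate 1. Ddb2 (0.63), Brca1 (-0.53) and Ercc1 (-0.31) kept this call in every alternative. Fancd2 (-0.72), Exo1 (-0.63), Bard1 (-0.60), Fanci (-0.35), Rad50 (-0.22), Msh6 (-0.16), Fancm (0.39) and Atm (0.19) lost it when at least 1 library was left out, at adjusted p of 0.0537 to 0.434. Rad50 lost it without off-doxycycline sgPcyt2 replicate 1, Fancm without off-doxycycline cDNA replicate 2, and Bard1, Exo1, Fancd2 and Msh6 without replicate 1 of either. Fanci lost it without any of the 4 libraries, and Atm without any of them except off-doxycycline sgPcyt2 replicate 2. In DESeq2 the calls of Fanci, Msh6 and Atm were lost too, and that of Atm also with no filter on low counts and with a replicate block.

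Per kilobase of counted exon, Msh6 (42.4 CPM), Rbbp8 (28.3) and Ercc1 (22.2) had the highest mean levels of the 38 genes in vector cells, and Rad51c (1.8), Rad51b (2.54), Fancg (2.9) and Polk (3.59) the lowest. In sgPcyt2 cells off doxycycline the order was Ercc1 (28.9), Polk (22.7) and Msh6 (19.6) at the top, with Rad51c (0.3), Exo1 (0.367) and Recql4 (0.378) at the bottom. Fancg and Rad51b were counted over different transcripts in different tables, for Fancg one with a retained intron in the Pcyt2 table, so their levels are not comparable between tables.

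Genes of the same pathways outside the 38 had more falls than rises in KPsh cells and with p53WT or p53TAD1m, but not with p53TAD12m. Of 116 other repair genes tested, 66 fell and 16 rose in KPsh cells, against 31.7% and 33.1% of all genes. With p53WT 74 fell and 8 rose, against 25.1% and 25.5%, and with p53TAD1m 37 fell and 6 rose, against 17.5% and 19%. With p53TAD12m 1 fell (Mlh3) and 1 rose (Ercc5), against 1.85% and 2.00%, so neither share passed that of all genes. Of 23 further recombination genes, 19 fell with p53WT, among them the nuclease gene Dna2 (-1.17) and the resolvase gene Gen1 (-1.10). Ercc5, the nuclease that cuts 3′ of a bulky lesion, rose by 1.63 ± 0.08 with p53WT, 1.11 with p53TAD1m and 1.70 with p53TAD2m against vector, and by 2.04 in KPsh cells, while the excision gene Ercc8 fell (-0.71 with p53WT and -0.85 in KPsh cells). Polq, the polymerase of theta-mediated end joining, fell by 1.40 with p53WT and by 1.49 in KPsh cells. The checkpoint genes Clspn and Cdc25c changed by -1.18 and -1.25 with p53WT. Of 12 damage-response genes known to be induced by p53, 11 rose with p53WT, 9 with p53TAD1m and 10 in KPsh cells, with Btg2, an antiproliferative gene, at 2.64, 1.05 and 3.57. Sesn1, of the same list, fell with p53WT (-0.38, adjusted p = 0.0261 in edgeR) and in KPsh cells (-1.09, adjusted p = 4.04e-07).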

How the data were processed

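RNA was extracted with TRIzol and made into libraries with a stranded mRNA kit, per the labels' protocols. The values are expected counts per gene, which the authors deposited without normalization in 3 tables. Between 17.6 and 19.9% of a library's values were not whole, and rounding them changed no library total by more than 0.0533%. STAR 2.6.1c and HOMER on build mm10 are named in the submitters' processing notes. Reads on both strands were counted by HOMER's analyzeRepeats.pl over GENCODE vM25 exons of 1 transcript per gene, per the file headers, so reads of overlapping genes on opposite strands cannot be told apart. The 38 members and all lists were chosen with earlier results of these data known.

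Columns were matched to samples by name. The KPsh columns named only by a day and the Pcyt2 columns named for wild-type Pcyt2 were matched by elimination, as off doxycycline and as cDNA cells. Each table was tested alone with edgeR 4.0.16 (limma 3.58.1, R 4.3.3), with filterByExpr at default, TMM factors (0.979 to 1.02) and robust quasi-likelihood fits on group means. Each fit held all groups of its table and so shared their spread (residual degrees of freedom: KPsh 4, KPnull 5, Pcyt2 4). Benjamini-Hochberg adjustment ran over the 13990 (KPsh), 15075 (KPnull) or 14916 (Pcyt2) genes that passed the filter. CPM uses TMM-adjusted library sizes. The biological coefficients of variation were 0.0582 in the KPsh, 0.0548 in the KPnull and 0.0333 in the Pcyt2 table. Replicates of every group differed by more than counting noise (lowest chi-square per degree of freedom 1.71). Tests were 2-sided, and counting error limits the precision of the lowest genes. The fits were also run on simulated counts, whose outcome is not reported here and adds no support to the calls.

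Library values are given for up to 3 genes of a role with the largest called change in KPsh cells or with p53WT. These had a mean of at least 2 CPM. Values are also given for the gene with the smallest change with p53WT, and for genes whose withdrawal effect differed between sgPcyt2 and cDNA cells. Most of these genes were thus chosen for a large called change. Statements that their groups do not overlap describe them and add no support to the calls. From each list of other repair genes, up to 4 called genes could be named. Alternatives were DESeq2 1.42.0, RLE factors, no filter on low counts, fits without robust estimation, a replicate block and leaving out each library. Overlaps come from the GENCODE vM21 annotation.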

Additional observations from a re-analysis of the deposited data

Results flagged for a closer look

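The response to doxycycline withdrawal differed between sgPcyt2 and sgPcyt2+Pcyt2-cDNA cells, by the interaction term of edgeR, for 8 of the 38 genes, 7 lower and 1 higher, against 12.4% and 12.8% of all genes tested. The share of the 38 called in either direction was thus below that of all genes, and only the share called lower was above it. Since cDNA cells held Pcyt2 RNA far above KPsh cells without a guide, its loss and its excess cannot be told apart here. The difference of log2 changes (sgPcyt2 minus cDNA cells) was -0.62 for Brca1, -0.38 for Brca2, -0.65 for Bard1, -0.23 for Rad50, -0.77 for Exo1, -0.66 for Fancd2, 0.76 for Ddb2 and -0.97 for Ercc1. The calls of Brca1, Exo1, Ddb2 and Ercc1 held in every alternative, and those of Brca2, Bard1, Rad50 and Fancd2 did not. Acp2, which overlaps Ddb2 on the other strand, differed in the same direction (0.34), and its part in the Ddb2 value was not tested.

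Ercc1 moved in opposite directions in different cells off against on doxycycline. It changed by 0.88 in KPsh cells without a guide and by -1.01 in sgPcyt2 cells, in every library of each. In cDNA cells its change was -0.04 with no call (adjusted p = 0.614), and each off-doxycycline library was below each on-doxycycline one. These differences between tables were not tested.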

How the results depend on the processing

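Of 241 calls over the 12 comparisons, 211 held in every alternative, 30 were lost in at least 1, and 0 turned direction in an alternative. DESeq2 gave 5 genes for the interaction, against 8, and 1 for the on-doxycycline comparison of sgPcyt2 with cDNA cells, against 3. With 1 library left out, the number of called genes ranged over 28 to 31 in KPsh cells, 33 to 33 with p53WT, 9 to 14 with p53TAD1m (against 15), 33 to 34 with p53TAD2m, 2 to 4 with p53TAD12m (against 2), 29 to 31 for p53TAD1m against p53WT, 36 to 37 in sgPcyt2 and 34 to 36 in cDNA cells, 5 to 9 for the interaction, 1 to 2 on doxycycline and 4 to 12 off it (against 11). Where that left 1 library in a group, it was assumed to vary like the other groups. Over all genes, p53TAD12m had 580 calls, against 352 and 382 without vector replicate 1 or 2, and p53TAD2m against p53WT had 43, against 107 with no filter. DESeq2 called 2426 genes against 3759 for the interaction, 1572 against 2746 on doxycycline and 3116 against 4944 off it.

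Polk passed for the interaction with RLE factors (adjusted p = 0.0495) and with no filter (0.0228). RLE factors moved the median of all genes by at most 0.0158 (log2, by size). With the replicate number as a block, the pairing gave 6 genes for the interaction (Brca2 at 0.0503 and Rad50 at 0.0507 were lost), 10 off doxycycline, 3 on it, 14 with p53TAD1m, 31 for p53TAD1m against p53WT, and the same number as without it elsewhere. Among libraries of different groups with the same number, deviations from the group mean correlated at -0.204 to 0.354 in the KPnull table. The range was -0.126 to -0.0996 in the KPsh and -0.0696 to 0.0109 in the Pcyt2 table. With 2 libraries in a group, the values for unlike numbers mirror these. In the KPnull and Pcyt2 tables the check therefore cannot tell whether numbers mark pairs. Depth limits Rad51b, Rad51c, Recql4 and Ung in edited cells off doxycycline, which summed to at most 79 counts over 2 libraries.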
